A study of Homo sapiens with 32 samples.

Results

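STAG1 knockout (KO) clones of A673 cells were compared with STAG1-proficient A673 cells. The comparison holds the 5 libraries of experiment 3 out of 32 samples in the series, chosen by the genotype and experiment in their labels: 3 STAG1 KO clones (the columns g2n1, g2n5 and g2n7 of the deposited table), 1 library of the parental line and 1 of the WT clone. A673 is an established Ewing sarcoma cell line, a tumour of bone and soft tissue in the young whose driver is EWS::FLI1, a fusion of a FET protein with an ETS transcription factor. The WT clone carries an inducible Cas9 at the AAVS1 locus and unedited STAG1 and STAG2. The KO clones carry the same Cas9 with STAG1 knocked out, and the study derived them from the WT clone. Each KO library is thus 1 edited clone, the parental line is an uncloned population without Cas9, and no library repeats another. The series as a whole asks what STAG2 loss does in Ewing sarcoma, and the STAG1 KO clones serve there as the counterpart lacking the other STAG protein.

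Cohesin is a ring of SMC1A, SMC3 and RAD21 that holds sister chromatids together and extrudes chromatin loops. A STAG protein binds RAD21, and in somatic cells it is either STAG1 or STAG2, so each cohesin complex carries one or the other. CTCF stops loop extrusion at its binding sites. NIPBL with MAU2 loads cohesin and drives extrusion, PDS5A, PDS5B and WAPL pause or release it, and ESCO1 and ESCO2 acetylate SMC3. In Ewing sarcoma STAG2 is the STAG gene that is recurrently mutated.

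Totals were 15734628 to 19704414 counts per library over 28278 gene symbols. Levels are given in CPM, counts scaled to a common library total. Among the 11079 genes that averaged 5 CPM or more, the parental and WT libraries differed by over 2-fold in 113, and KO libraries differed from each other in 271 to 583. The clone g2n1 was the furthest from the parental and WT libraries (1114 and 918 genes), followed by g2n5 (739 and 697) and g2n7 (659 and 512). Ewing sarcoma markers were present in all 5 libraries: PRKCB had 6668 to 10231 counts, LIPI 2909 to 5128 and NKX2-2 618 to 1933, and the summed level of 24 such genes was 6549 and 7787 CPM in the controls and 7125 to 8194 CPM in KO libraries. CD99 and CDKN2A were listed at 0 in every library, and whether this reflects expression or the counting was not tested. Of markers of other cells, CDH1, KRT5 and HBB were at 0 throughout, and PTPRC, CD3E, TEK and VWF had at most 2 counts. The 15 epithelial markers summed to 155 and 194.7 CPM in the controls and to 260.5 to 474.1 CPM in KO libraries, mostly from KRT18 (136 and 173.8 CPM in the controls, 230.4 to 397.3 CPM in KO libraries) and KRT8 (16.3 and 17.3 CPM, and 27.8 to 170.6 CPM). By edgeR 0 of the 4 epithelial genes tested were called, with 2 at an unadjusted p under 0.05 and 1 called by DESeq2. The 18 immune markers summed to 20.96 and 24.52 CPM in the controls and 18.9 to 38.6 CPM in KO libraries, and the 17 endothelial markers summed to 230.9 to 270.2 CPM in all 5. Ribosomal protein genes took 4.11% and 4.14% of counts in the controls and 3.48% to 3.64% in KO libraries. The part of these measures in the results below was not tested.

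STAG1 itself was not at a KO-like level in every KO library. It was at 70.6 CPM in the parental line, 59.4 CPM in the WT clone, 62.9 CPM in g2n1, 15.4 CPM in g2n5 and 33.8 CPM in g2n7. The transcript was low in g2n5 and g2n7, while g2n1 lay between both controls. Over all 3 clones the log2 fold change was -0.80 (SE 0.51, adjusted p = 0.376 by edgeR's quasi-likelihood test with Benjamini-Hochberg adjustment over 14373 genes), and without g2n1 it was -1.39 (adjusted p = 0.0731). Editing that shifts the reading frame need not lower the transcript, and the protein was not measured in these files. The study calls its STAG1 clones deficient and shows an immunoblot of its A673 clones. How the columns used here match the clones of that blot is not stated. Of the exonic bases of STAG1, 21.2% lie in exons of PCCB, whose reads cannot be told apart in libraries without strand. Results are therefore given with and without the library labelled g2n1. Which labelled clone number each of these columns belongs to is not known.

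STAG2 was at 268.8 and 282.9 CPM in the controls and at 357.9, 303.7 and 320.6 CPM in g2n1, g2n5 and g2n7. All 3 KO libraries were above both controls, but the difference did not pass the test (log2 fold change 0.25, SE 0.10, adjusted p = 0.196). KO libraries lay wholly on one side of both controls in 6687 genes, 46.5% of all genes tested. Among called genes that averaged 5 CPM or more they did so in 625 of 625. The other ring subunits SMC1A, SMC3 and RAD21 had log2 fold changes of 0.25, 0.02 and 0.04 with adjusted p of 0.316 to 0.918. By edgeR 0 of the 6 core and paralog genes tested were called, with 1 at an unadjusted p under 0.05 and 0 called by DESeq2. Of 15 genes of cohesin loading, release and acetylation and of CTCF, 1 was called. This was CTCFL, the germline paralog of CTCF, at 4.66 and 5.54 CPM in the controls and 0.26, 0.56 and 1.31 CPM in KO libraries (log2 fold change -2.80, SE 0.57, adjusted p = 0.0496). CTCFL was not called with the spread of all 22 A673 clone libraries, described below (adjusted p = 0.196). CTCF, NIPBL, WAPL and MAU2 had log2 fold changes of 0.02 to 0.08, and PDS5A and PDS5B of -0.06 and -0.14. EWSR1 and FLI1, parts of which make the fusion transcript, had log2 fold changes of -0.01 (SE 0.08) and 0.10 (SE 0.09), neither of them called.

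**Figure D1:**
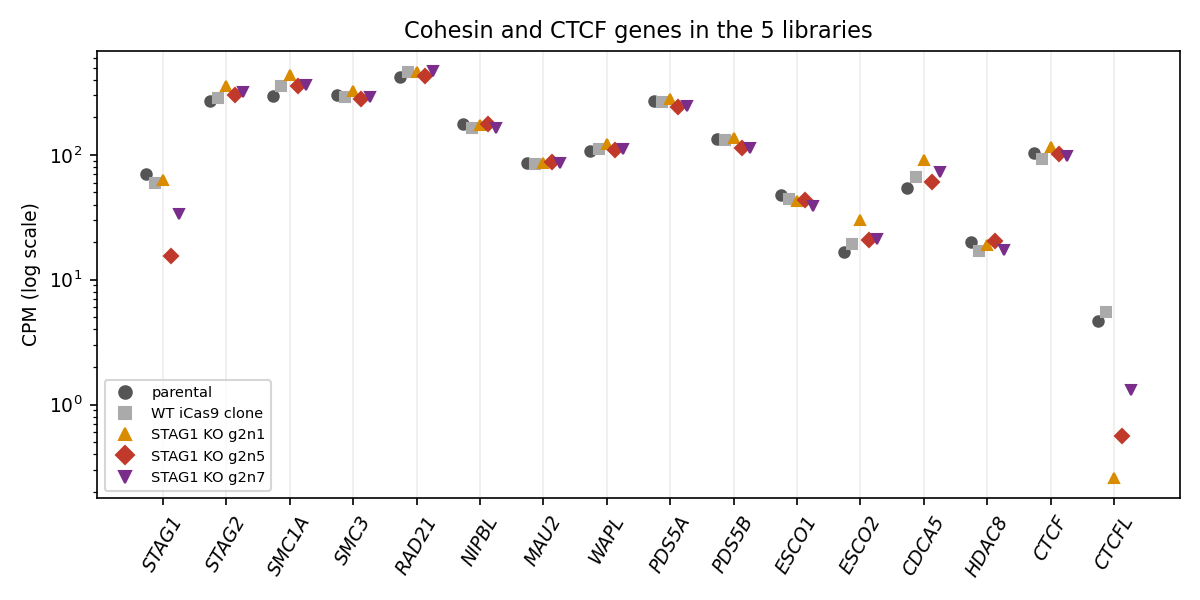
Level of 16 cohesin and CTCF genes in CPM (log axis) in each of the 5 libraries, 1 symbol per library. STAG1 was low in g2n5 (15.4 CPM) and g2n7 (33.8 CPM) but not in g2n1 (62.9 CPM). CTCFL was the only gene called, at 1.31 CPM or less in KO libraries against 4.66 and 5.54 CPM in controls, and it was not called with the spread of all 22 A673 clone libraries.

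Across all genes, 757 of 14373 tested (5.27%) were called at an adjusted p under 0.05. Of these, 398 (2.77%) were higher and 359 (2.5%) lower in STAG1 KO cells, and 425 differed by over 2-fold. Without g2n1, 1310 of 14239 (9.2%) were called, 746 (5.24%) higher and 564 (3.96%) lower, and 730 genes were called in both fits, with the same direction in each. The number called was 264 without g2n5 and 326 without g2n7. The calls rest on both controls being present: without the parental or without the WT library, edgeR called 0 genes, with 1668 and 2206 at an unadjusted p under 0.05, and DESeq2 called 434 and 731. With the spread between libraries taken from all 22 A673 clone libraries of experiments 1 to 3 rather than from these 5, 140 genes were called, 73 higher and 67 lower, 117 of them among the 757, and leaving out g2n1 lowered that number to 73. The larger number of higher than lower calls depended on the scaling, since with library size only 347 were higher and 400 lower (596 and 623 without g2n1). The spread over the 22 libraries is called the wider spread below.

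The genes that rose most were led by RASGRF1, an exchange factor that activates RAS in response to calcium. RASGRF1 was at 0.20 and 0.34 CPM in the controls and at 10.3, 9.41 and 11.1 CPM in g2n1, g2n5 and g2n7. The 3 clones lay close to each other and far above both controls (log2 fold change 5.25, SE 0.33, adjusted p = 0.0147, and 0.0146 with the wider spread). PLVAP, which forms the diaphragms of fenestrated endothelium, rose from 0.099 and 0.448 CPM to 13.3, 8.18 and 4.62 CPM (log2 fold change 4.99, SE 0.76, adjusted p = 0.0279, and 0.00777 with the wider spread). Of 9 endothelial markers tested PLVAP was the 1 called, and the list's median was 0.31. KDR, a VEGF receptor of the same list, was at 0.743 and 0.56 CPM in the controls and at 4.22, 1.01 and 2.68 CPM in KO libraries. It was not called (log2 fold change 1.99, SE 0.66, adjusted p = 0.134). MMP1, the interstitial collagenase, was at 21.7 and 46.2 CPM in the controls and at 700.4, 1351 and 454.9 CPM in the KO libraries. COL1A1, the main chain of type I collagen, was at 55.3 and 89.6 CPM in the controls and at 1107, 447.5 and 546.6 CPM in the KO libraries. The log2 fold changes of MMP1 and COL1A1 were 4.62 (SE 0.63, adjusted p = 0.0258) and 3.27 (SE 0.48, adjusted p = 0.0268). With the wider spread COL1A1 was called (adjusted p = 0.0188) and MMP1 was not (adjusted p = 0.07).

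Another 8 of the 12 genes with the largest rise had log2 fold changes of 3.12 to 4.32. They were MAP7D2, which binds microtubules, the zinc finger factor BNC1, DCBLD1, SPATS2L, MGAT5, which branches N-glycans, the soluble scavenger receptor SSC5D, SH3TC1, and MYLK, the myosin light chain kinase. MAP7D2 was at 0.842 and 0.84 CPM in the controls and at 21.1, 6.11 and 23.8 CPM in KO libraries. SH3TC1 was at 2.13 and 2.24 CPM in the controls and at 23, 15.4 and 22.5 CPM in KO libraries. These 2 were called with the wider spread, while adjusted p was 0.0509 to 0.167 for BNC1, DCBLD1, SPATS2L, MGAT5, SSC5D and MYLK. DCBLD1 lies in the chromosome 6 segment described below, where most genes were higher in every KO clone. MAP7D2 lies in the chromosome X segment described below, which was raised in g2n5 and g2n7 but not in g2n1, where MAP7D2 was at 21.1 CPM.

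The largest fall was that of BACE2, the paralog of the beta-secretase that cuts the amyloid precursor. BACE2 was at 38.5 CPM in the parental line and 23.8 CPM in the WT clone, and at 0.195, 0 and 0.368 CPM in g2n1, g2n5 and g2n7. It was close to absent in all 3 clones (log2 fold change -7.30, SE 0.61, adjusted p = 0.0182, and 0.0768 with the wider spread). FAM110C fell in the same way, from 34.5 and 22.6 CPM to 0, 0.784 and 0.21 CPM (log2 fold change -6.36, SE 0.73, adjusted p = 0.0213, and 0.0108 with the wider spread). ELOVL2, which elongates polyunsaturated fatty acids, was at 23.9 and 6.77 CPM in the controls, which themselves differed, and at 0.336 to 0.998 CPM in KO libraries (log2 fold change -4.43, SE 0.66, adjusted p = 0.0271).

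B4GALNT4, a glycosyltransferase, had the lowest adjusted p of the 24 genes under the wider spread. It was at 86.8 and 73.3 CPM in the controls and at 7.21, 7.23 and 13.5 CPM in KO libraries (log2 fold change -3.10, SE 0.29, adjusted p = 0.0182, and 0.000137 with the wider spread). DCLK1, a microtubule-associated kinase of neurons, fell from 56.2 and 33.1 CPM to 2.92, 4.31 and 9.25 CPM, and TLE2, a corepressor of the Groucho family, from 111.3 and 128.6 CPM to 7.47, 12.1 and 28.2 CPM. In DCLK1, TLE2 and B4GALNT4 the highest KO library was g2n7. The log2 fold changes of DCLK1 and TLE2 were -3.01 (SE 0.48, adjusted p = 0.0312) and -2.91 (SE 0.49, adjusted p = 0.0358), and with the wider spread DCLK1 was called and TLE2 was not (adjusted p = 0.0347 and 0.282). The other 6 were ARRDC4, an alpha-arrestin that responds to glucose, BTBD17, the B cell activating factor TNFSF13B, the NMDA receptor subunit GRIN2C, the long noncoding RNA MIAT and NETO1, an auxiliary subunit of kainate receptors, with log2 fold changes of -3.65 to -2.91. Of these NETO1 was called with the wider spread (adjusted p = 0.00175). Exons of other genes overlap 24.8% of the exonic bases of NETO1 and 19.2% of those of MIAT, whose values may hold reads of both. In all, 10 of the 24 genes were called with the wider spread, 5 higher and 5 lower.

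**Figure D2:**
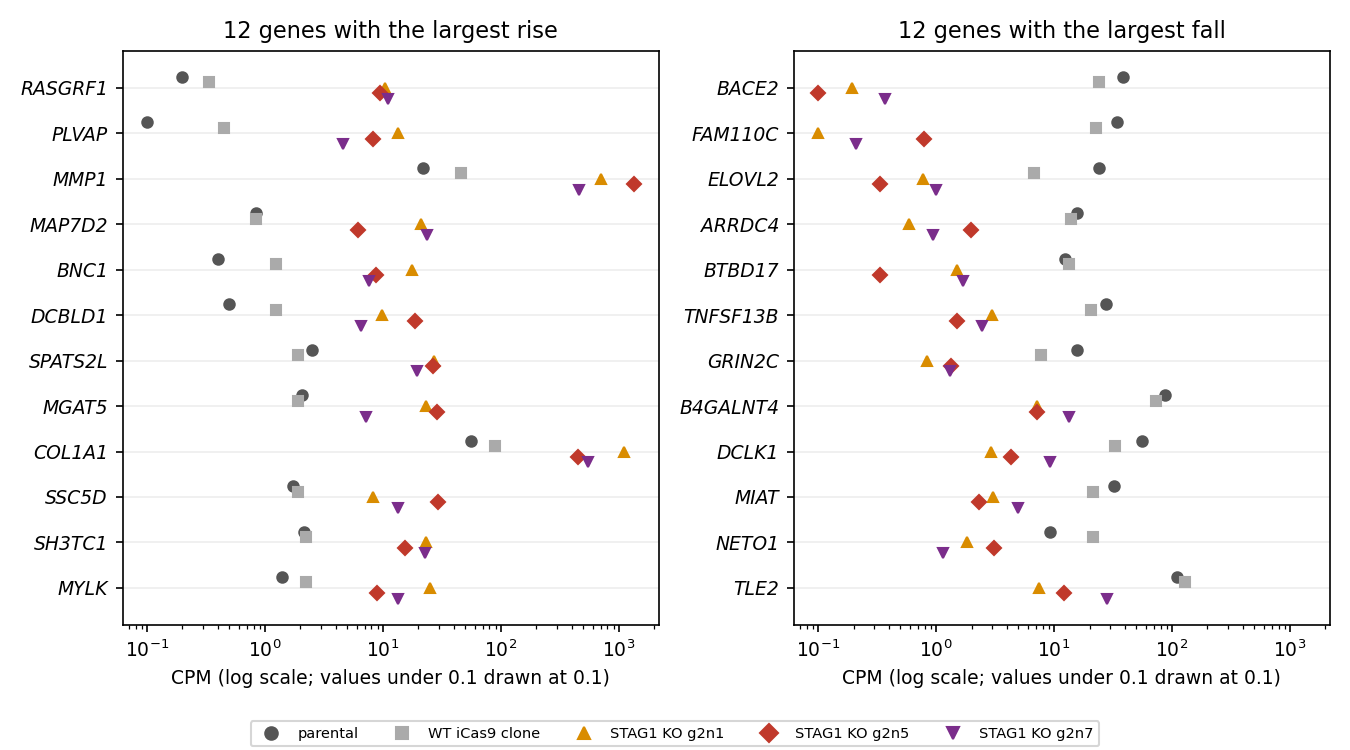
Level in CPM (log axis, values under 0.1 drawn at 0.1) of the 12 genes with the largest rise (left) and the 12 with the largest fall (right) among called genes that averaged 5 CPM or more and had all KO libraries on one side of both controls. Each symbol is 1 library, and in every gene the 3 KO libraries lay on one side of the parental and WT libraries, as the rule for naming them requires.

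The clone g2n1 differed from g2n5 and g2n7 in part of the genome. Of 1124 genes called without g2n1 that averaged 5 CPM or more, with both KO libraries on the same side of the controls, g2n1 was at or beyond the level of a control in 79, of which 67 were higher and 12 lower in g2n5 and g2n7. QPCT, the glutaminyl cyclase, was at 1.44 and 1.01 CPM in the controls, 0.39 CPM in g2n1, 20.1 CPM in g2n5 and 8.56 CPM in g2n7. NDRG1, which is induced by hypoxia and differentiation, was at 9.22 and 4.14 CPM in the controls and at 7.67, 34.4 and 26.6 CPM in g2n1, g2n5 and g2n7. In both genes g2n1 was like the controls or below them. The axon guidance receptor EPHA5 was at 13.9 and 14.5 CPM in g2n5 and g2n7, against 1.43 CPM in g2n1 and 4.91 and 2.18 CPM in the controls. Log2 fold changes without g2n1 were 3.55 for QPCT, 2.19 for NDRG1 and 2.01 for EPHA5 (adjusted p = 0.0246, 0.0337 and 0.0399), and over all 3 clones the adjusted p values were 0.231, 0.174 and 0.365. Among genes lower in g2n5 and g2n7 alone, the imprinted gene MEST was at 31.5 and 43.3 CPM in the controls, 52.6 CPM in g2n1 and 15 and 19.3 CPM in g2n5 and g2n7, and the surface glycoprotein THY1 at 88.7 and 103.6, 107.7, and 58.3 and 68.1 CPM. Since the rule set g2n1 apart, these values are a description.

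Genes that EWS::FLI1 is known to repress were higher in STAG1 KO cells where they were called. The median log2 fold change of the 19 tested was 0.59, against -0.003 over all genes tested. Of the 19, 5 (26.3%) were called higher and none lower, beside 2.77% and 2.5% of all genes tested. Without g2n1 7 of them were higher and 0 lower. The 5 called over all clones were COL1A1, described above, the CDK inhibitor CDKN1A, the matricellular proteins CCN1 and CCN2, and THBS1. THBS1 was at 0.05 and 0.056 CPM in the controls and 0.578 to 1.3 CPM in KO libraries, and it was named after its values were seen. So were other genes here with a mean under 5 CPM, apart from cell type markers, the cohesin lists and genes the study names. CDKN1A was at 23.9 and 49.5 CPM in the controls and at 107.7, 147.9 and 183.4 CPM in KO libraries. CCN1 was at 16.7 and 21 CPM in the controls and at 49.9, 42.7 and 53.2 CPM in KO libraries. CCN2 was at 5.25 and 7.67 CPM in the controls and at 37.4, 18.2 and 20.9 CPM in KO libraries. These 3 genes had log2 fold changes of 1.999 (SE 0.37), 1.37 (SE 0.16) and 1.98 (SE 0.38) and adjusted p of 0.0406, 0.0214 and 0.0451. With the wider spread 1 of 20 genes of the list was called.

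Of 28 collagen genes tested, 6 were called higher and 1 lower (median 0.24), and of 35 matrix proteases and inhibitors 6 were higher and 1 lower (median 0.22). Of 31 integrins and laminins 2 were higher and 1 lower (median 0.26). Over all genes tested 2.77% were called higher and 2.5% lower. COL6A3, a chain of the microfibril-forming type VI collagen, was at 4.71 and 8.79 CPM in the controls and at 24, 22.9 and 38.9 CPM in KO libraries. COL5A3, a chain of the fibrillar type V collagen, rose from 12.7 and 16.9 CPM to 77.4, 44.4 and 53.2 CPM. Both rose about as much in log2 terms (2.09, SE 0.37, and 1.98, SE 0.28, adjusted p = 0.0382 and 0.0268). COL6A3 was called with the wider spread and COL5A3 was not (adjusted p = 0.0306 and 0.256). COL9A3, a cartilage collagen, fell instead (log2 fold change -0.94, SE 0.15, adjusted p = 0.0314, and 0.46 with the wider spread). Among inhibitors of proteases, TIMP4 rose from 6.19 and 4.37 CPM to 31.1, 45.7 and 22.6 CPM (log2 fold change 2.64, SE 0.36, adjusted p = 0.0258, and 0.0152 with the wider spread), and SERPINF1, the antiangiogenic factor PEDF, fell from 365.6 and 355.7 CPM to 116.1, 138.8 and 176.2 CPM (log2 fold change -1.33, SE 0.17, adjusted p = 0.0252). ADAMTS7, a secreted protease, rose by 2.64 on the log2 scale. SERPINF1 and ADAMTS7 were not called with the wider spread (adjusted p = 0.539 and 0.273). MMP3, the stromelysin, lies next to MMP1 in the genome and was at 0.545 and 0.672 CPM in the controls and at 7.47, 4.76 and 7.09 CPM in KO libraries.

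Of 21 mesenchymal stem cell and fibroblast markers tested, 4 (19%) were called higher and 2 (9.52%) lower (median 0.31). The shares over all genes tested were 2.77% and 2.5%. CD44, the hyaluronan receptor, was at 1.78 and 4.70 CPM in the controls and at 31.3, 30 and 12.2 CPM in KO libraries, and SPARC, a collagen-binding matricellular protein, at 227.2 and 373.7 CPM against 883.9, 1074 and 981.5 CPM. NT5E, the ecto-nucleotidase CD73, rose from 20.6 and 24.4 CPM to 97.3, 197.7 and 78.3 CPM. These 3 had log2 fold changes of 2.92 (SE 0.59), 1.71 (SE 0.23) and 2.47 (SE 0.43). The intermediate filament VIM was the fourth, at 1418 and 1399 CPM in the controls and 1846, 2035 and 1867 CPM in KO libraries (log2 fold change 0.44). MCAM, a cell adhesion molecule of the same list, had a log2 fold change of -1.03 (SE 0.13) and LUM, a small collagen-binding proteoglycan, of -5.08 (SE 0.81). LUM was at 7.68 CPM in the parental line, 1.79 CPM in the WT clone and 0.056 to 0.21 CPM in KO libraries. None of the 6 were called with the wider spread. In a bulk RNA sample, more RNA per cell and more cells with the RNA cannot be told apart.

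ERK feedback and immediate early genes were higher where called, with 1 exception, and 18 of the 24 tested were not called. Of 24 tested, 5 (20.8%) were called higher and 1 (4.17%) lower (median 0.52), beside 2.77% and 2.5% of all genes tested. Without g2n1 8 of the 24 were higher and 1 lower. Over all 3 clones none of the SPRY and DUSP genes of the list were called. Log2 fold changes were 0.01, 1.03 and -0.12 for SPRY1, SPRY2 and SPRY4, and -0.46, 0.12 and 0.34 for DUSP4, DUSP5 and DUSP6. FOS, a subunit of the AP-1 transcription factor, was at 10.8 and 20.2 CPM in the controls and at 53.7, 59 and 101.8 CPM in KO libraries. Its paralog FOSB was at 1.88 and 1.79 CPM in the controls and at 8.90, 7.84 and 17.6 CPM in KO libraries, and FOSL2 at 3.72 and 5.49 CPM against 16.3, 27.7 and 14.5 CPM. These 3 AP-1 subunits had log2 fold changes of 2.21 (SE 0.40), 2.64 (SE 0.44) and 2.09 (SE 0.37). The ETS factors ETV4 and ETV1 rose by 1.76 (SE 0.29) and 0.83 (SE 0.10). MYC fell from 300.3 and 295.9 CPM to 198.5, 199.6 and 218.8 CPM (log2 fold change -0.54, SE 0.08, adjusted p = 0.0298), and it was the only one of the 6 called with the wider spread. RASGRF1 was the only called gene among 13 RAS exchange factors tested, and by edgeR 0 of 20 RAS GTPases and their GTPase-activating proteins were called, with 4 at an unadjusted p under 0.05 and 1 called by DESeq2.

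Receptors and ligands of several pathways were among the genes called. TGFBR1, the type I receptor of TGF-beta, was at 7.23 and 5.21 CPM in the controls and at 30.7, 37.7 and 28.8 CPM in KO libraries. Its log2 fold change was 2.38 (SE 0.22, adjusted p = 0.0182, and 0.0165 with the wider spread). The ligand TGFB1 rose from 132.8 and 189.9 CPM to 309.6, 319.5 and 351.8 CPM (log2 fold change 1.02, SE 0.17), and of 41 genes of the TGF-beta and BMP pathway 3 were called higher and 1 lower, with a median of 0.05. IGF1R, the receptor of insulin-like growth factors, fell from 109.9 and 94.7 CPM to 44.6, 43.8 and 28.5 CPM (log2 fold change -1.39, SE 0.20, adjusted p = 0.0268, and 0.00309 with the wider spread). FGF1 rose by 2.01 on the log2 scale (SE 0.25) and IGFBP5 fell by 1.53 (SE 0.25). TGFB1, FGF1 and IGFBP5 were not called with the wider spread (adjusted p = 0.0718, 0.121 and 0.536). Over the 42 genes of the FGF, IGF and receptor tyrosine kinase list 4 (9.52%) were higher and 6 (14.3%) lower. The shares over all genes tested were 2.77% and 2.5%.

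In the WNT and NOTCH pathways more of the called genes were lower than higher. Of 38 WNT genes 1 (2.63%) was higher and 3 (7.89%) lower (median -0.14), with the same counts without g2n1. Of 28 NOTCH genes 1 (3.57%) was higher and 3 (10.7%) lower (median -0.14), and 2 were higher and 3 lower without g2n1. Over all genes tested 2.77% were higher and 2.5% lower. LGR5, the R-spondin receptor that marks intestinal stem cells, fell from 113.6 and 71.4 CPM to 7.80, 9.64 and 22.2 CPM (log2 fold change -2.80, SE 0.46, adjusted p = 0.0322, and 0.0347 with the wider spread). The WNT antagonist SFRP2 was at 10.9 and 6.04 CPM in the controls and at 0.112 to 0.315 CPM in KO libraries, and WNT5B, a ligand, fell by 2.70 on the log2 scale. DKK2, another antagonist, was the 1 that rose, by 0.62 on the log2 scale. LFNG, which glycosylates NOTCH receptors, rose from 9.31 and 8.68 CPM to 46.2, 43.3 and 36.6 CPM (log2 fold change 2.22, SE 0.15, adjusted p = 0.0147). The receptor NOTCH3 fell by 0.63 on the log2 scale (SE 0.08), the ligand DLL3 by 2.54 (SE 0.37) and the regulator DTX1 by 3.36 (SE 0.67). Of 62 axon guidance genes 1 was higher and 4 lower (median -0.16), while without g2n1 4 were higher and 6 lower and the median was 0.06. Among the genes lower over all 3 clones were the receptor EPHB2 and the semaphorin SEMA4D, which fell by 2.03 (SE 0.38) and 1.63 (SE 0.28). DLL3 and SEMA4D were called with the wider spread too (adjusted p = 0.0214 and 0.00777). Apart from these and LGR5, no gene of the WNT, NOTCH and axon guidance lists was called with it. LFNG, NOTCH3, DKK2 and EPHB2 had an adjusted p of 0.0674, 0.649, 0.741 and 0.372 there.

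Ion channel genes were the list with the lowest median among those with at least 20 genes tested. Of 56 potassium, sodium and calcium channel genes, 1 (1.79%) was called higher and 8 (14.3%) lower, beside 2.77% and 2.5% of all genes tested. The median log2 fold change of the 56 was -0.70, and 2 were higher and 10 lower without g2n1 (median -0.42). CACNG4, an auxiliary subunit of calcium channels and AMPA receptors, was at 18.6 and 27.5 CPM in the controls and at 4.81, 3.59 and 3.31 CPM in KO libraries. CACNA1G, a T-type calcium channel, fell from 39.2 and 40.1 CPM to 18.1, 9.36 and 15.6 CPM, and CACNB3, a beta subunit, from 42.3 and 36.4 CPM to 17.1, 15.7 and 15.8 CPM. These 3 had log2 fold changes of -2.57 (SE 0.26), -1.47 (SE 0.27) and -1.28 (SE 0.12). The M-type potassium channel gene KCNQ3, at 1.04 and 1.18 CPM in the controls and 0.053 to 0.26 CPM in KO libraries, was called lower with a log2 fold change of -2.97. KCNE3, a potassium channel subunit, was the 1 that rose, from 186.4 and 139.3 CPM to 561, 471.8 and 292.8 CPM (log2 fold change 1.44, SE 0.29, adjusted p = 0.0496). With the wider spread 1 of 82 was called, CACNB3 (adjusted p = 0.0126).

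**Figure D3:**
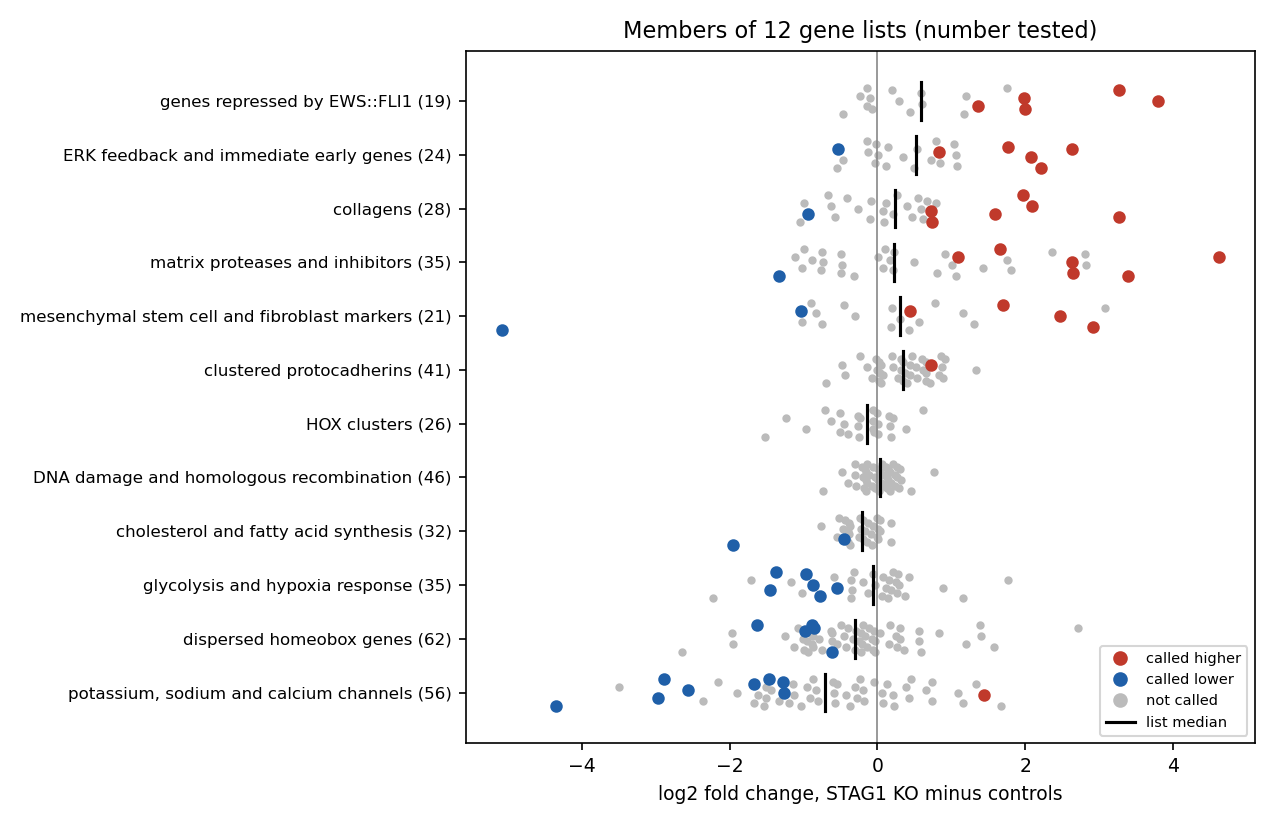
Log2 fold change (STAG1 KO minus controls) of each tested member of 12 gene lists, with called members in red (higher) or blue (lower) and a black bar at the list median. EWS::FLI1-repressed genes (median 0.59) and ERK feedback and immediate early genes (median 0.52) stood mostly to the right, ion channels (median -0.70) mostly to the left, and no HOX or DNA damage gene was called.

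Over all 3 clones 2.77% of all genes tested were higher and 2.5% lower. Of 35 genes of glycolysis and the hypoxia response, 0 were higher and 6 (17.1%) lower, with a median of -0.05. Without g2n1 2 were higher and 8 lower, and DESeq2 called 4 higher and 9 lower, so that called members went both ways. ENO2 and ALDOC, the neural isoforms of enolase and aldolase, were at 190.1 and 219 CPM and at 86.1 and 108.3 CPM in the controls. In KO libraries ENO2 was at 58.9, 91.1 and 74.7 CPM and ALDOC at 27, 40.3 and 45.2 CPM. Both fell in every clone, with log2 fold changes of -1.45 (SE 0.18) and -1.37 (SE 0.23), as did the angiogenic factor VEGFA (-0.87, SE 0.12), the mitophagy receptors BNIP3 and BNIP3L (-0.97 and -0.55) and hexokinase HK2 (-0.78). Of 32 genes of cholesterol and fatty acid synthesis 0 were higher and 2 lower, and without g2n1 11 were lower. HMGCS1, an early enzyme of the pathway, fell from 387.5 and 372.3 CPM to 285.6, 282.9 and 265.2 CPM (log2 fold change -0.45, SE 0.08). None of the genes of either list were called with the wider spread.

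Among developmental transcription factors, 0 of 62 dispersed homeobox genes tested were higher and 5 (8.06%) lower (median -0.30). The shares over all genes tested were 2.77% and 2.5%. POU3F2, SIX4, MEIS1 and MEIS2 were among the 5. POU3F2, a POU factor of neural progenitors, fell from 18.8 and 17.1 CPM to 4.94, 5.44 and 7.04 CPM (log2 fold change -1.63, SE 0.21, adjusted p = 0.0252, and 0.07 with the wider spread). NR2F2, an orphan nuclear receptor, fell from 552.2 and 493.7 CPM to 211.2, 284.7 and 269.5 CPM (log2 fold change -1.04, SE 0.14, adjusted p = 0.0265, and 0.00134 with the wider spread). BCL11B, a zinc finger factor that is an EWS::FLI1 target, fell from 153.5 and 146.7 CPM to 58.3, 65.8 and 71 CPM (log2 fold change -1.21, SE 0.10, adjusted p = 0.0182, and 0.0045 with the wider spread). Of 23 Ewing sarcoma markers tested BCL11B and KCNAB3 were lower, LIPI and TSPAN13 higher, and 19 not called. TSPAN13, a tetraspanin, rose from 135.9 and 173.9 CPM to 295.4, 381.1 and 384.2 CPM (log2 fold change 1.19, SE 0.17, adjusted p = 0.0268, and 0.0044 with the wider spread). Of 29 Polycomb genes PCGF5 was higher (log2 fold change 0.999, SE 0.18) and CBX2 lower (-0.74, SE 0.08). PCGF5 was called with the wider spread and CBX2 was not (adjusted p = 0.0323 and 0.142).

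Several lists held few or no calls at the background of 5.27%. By edgeR 0 of 26 HOX genes (median -0.14), 46 DNA damage and homologous recombination genes (median 0.03) and 7 muscle genes were called. At an unadjusted p under 0.05 these lists held 4, 3 and 0 genes, and DESeq2 called 0, 2 and 0 of them. Of 61 DNA replication and mitosis genes 1 was called higher, the spindle checkpoint kinase TTK, which lies in the chromosome 6 segment described below. Clustered protocadherins, whose promoter choice depends on cohesin and CTCF, had a median of 0.35 over 41 tested, with 1 called, PCDHB2 (0.73, SE 0.10). Their reads can be shared between near-identical paralogs. Of 48 interferon-stimulated genes 1 was higher and 1 lower, the latter OAS1 (-1.51, SE 0.27). PCDHB2 and OAS1 were not called with the wider spread (adjusted p = 0.26 and 0.439).

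Because AP-1 subunits and the TEAD-regulated CCN1 and CCN2 rose, the 250 bases before the start of genes were searched for the AP-1 letters TGANTCA and the TEAD letters GGAATG, on both strands. RefSeq promoters (GRCh38.p14) matched 11025 of the genes tested. TGANTCA stood in 3.92% of these, in 6.56% of 320 called higher and in 4.14% of 266 called lower, and in 6.6% of the 27305 promoters of the whole table. GGAATG stood in 9.37% of all, in 13.1% of those called higher and in 7.52% of those called lower, and in 11.9% of those of the whole table. The letters GGAAGGAA, a pair of the repeat unit that EWS::FLI1 binds, stood in 2.86%, 3.75% and 2.26% of the same groups of tested genes. The motifs were chosen after the values were seen and the shares were not tested. GGAATG stood in 42 genes called higher and 20 called lower. Sequences of 6 of these, picked by hand as examples, are given with these letters, or their reverse complement, in capitals. CCN2 holds 3 copies, SPARC, ITGA5 and PLVAP hold 1 each, and TLE2 and DCLK1, which fell, hold it too. The sequence of CCN1 is not shown. ITGA5, a fibronectin receptor subunit, was at 196 and 229.7 CPM in the controls and at 347.7, 340.7 and 299.9 CPM in KO libraries (log2 fold change 0.63, SE 0.11, adjusted p = 0.0391, and 0.114 with the wider spread). All 6 genes lie on the minus strand and each sequence reads 5′ to 3′ towards the gene.
CCN2 (chr6:131951373-131951622): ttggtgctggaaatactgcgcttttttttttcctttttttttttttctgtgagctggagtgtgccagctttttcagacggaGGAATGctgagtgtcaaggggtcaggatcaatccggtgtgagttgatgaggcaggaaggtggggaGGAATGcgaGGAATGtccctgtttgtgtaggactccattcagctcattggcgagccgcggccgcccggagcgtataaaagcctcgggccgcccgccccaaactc
SPARC (chr5:151686916-151687165): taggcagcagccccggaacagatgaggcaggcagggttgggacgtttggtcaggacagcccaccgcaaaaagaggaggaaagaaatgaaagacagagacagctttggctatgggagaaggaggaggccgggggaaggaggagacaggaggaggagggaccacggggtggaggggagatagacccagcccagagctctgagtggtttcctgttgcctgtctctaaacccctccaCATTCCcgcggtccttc
ITGA5 (chr12:54419267-54419516): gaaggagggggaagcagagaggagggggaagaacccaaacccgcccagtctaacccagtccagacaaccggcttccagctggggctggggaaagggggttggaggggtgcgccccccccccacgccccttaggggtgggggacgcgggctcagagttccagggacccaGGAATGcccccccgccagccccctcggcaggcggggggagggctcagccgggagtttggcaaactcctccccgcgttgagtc
PLVAP (chr19:17377343-17377592): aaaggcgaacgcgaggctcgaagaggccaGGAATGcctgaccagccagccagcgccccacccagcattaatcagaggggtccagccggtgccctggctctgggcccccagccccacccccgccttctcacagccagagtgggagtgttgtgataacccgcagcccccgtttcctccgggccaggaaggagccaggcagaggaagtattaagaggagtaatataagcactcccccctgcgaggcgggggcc
TLE2 (chr19:3047636-3047885): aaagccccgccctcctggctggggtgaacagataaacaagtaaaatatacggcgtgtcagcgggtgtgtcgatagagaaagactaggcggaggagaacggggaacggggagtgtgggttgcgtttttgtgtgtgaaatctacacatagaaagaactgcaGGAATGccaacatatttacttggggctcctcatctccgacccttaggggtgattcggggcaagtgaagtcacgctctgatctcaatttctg
DCLK1 (chr13:36131940-36132189): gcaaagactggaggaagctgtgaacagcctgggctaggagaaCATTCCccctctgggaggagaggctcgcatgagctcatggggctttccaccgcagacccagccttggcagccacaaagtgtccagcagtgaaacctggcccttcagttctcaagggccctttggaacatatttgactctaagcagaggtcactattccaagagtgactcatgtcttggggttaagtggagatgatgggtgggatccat

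Genes of the long arm of chromosome 6 from 70 Mb to its end (6q below) were higher as a block in all 3 clones. Of 307 tested there, 85 (27.7%) were called higher and 2 lower, with a median log2 fold change of 0.51, and these 85 are 21.4% of all genes called higher. Over the 246 that averaged 5 CPM or more, the median log2 difference from the mean of both controls was 0.54 in g2n1, 0.55 in g2n5 and 0.52 in g2n7, and 90.7%, 94.7% and 94.3% of the genes were above that mean. Over the 302 genes of chromosome 6 before 70 Mb the medians were -0.02, -0.03 and -0.03. Of 8 runs of at least 3 neighbouring called genes with the same direction in the whole genome, 7 lay on 6q, the longest being SEC63, OSTM1, SNX3, AFG1L and FOXO3. Several genes named here lie there, among them CCN2, NT5E, TTK, GRIK2, FOXO3, DCBLD1 and POU3F2, of which POU3F2 fell. The p53 target SESN1 was at 8.08 and 7.84 CPM in the controls and at 22.6, 22.9 and 21.4 CPM in KO libraries, and the lysosomal fucosidase FUCA2 at 5.55 and 5.21 CPM against 50.6, 38.8 and 38 CPM. Their log2 fold changes of 1.49 and 2.98 were above the median of the segment. Neither SESN1 nor FUCA2 was called with the wider spread (adjusted p = 0.0543 and 0.469). DNA copy number was not measured, and its part in these values was not tested. Without the 6q genes 560 genes were called, 268 higher and 292 lower, and without 6q and the chromosome X segment 590.

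A second block lay on the short arm of chromosome X before 40 Mb (Xp), and it set g2n1 apart. Over its 67 genes that averaged 5 CPM or more, the median log2 difference from the controls was 0.88 in g2n5 and 0.81 in g2n7, but 0.01 in g2n1. Of 82 tested, 5 (6.1%) were called higher over all 3 clones, and 50 (61%) without g2n1. On the rest of chromosome X the medians were -0.02 to 0.02, and on no other chromosome did a KO library have a median beyond 0.1 in either direction. Xp genes were 22 of the 67 genes that were higher in g2n5 and g2n7 with g2n1 at or below a control, ARSD among them, at 14.5 and 13.2 CPM in the controls, 9.62 CPM in g2n1 and 78.7 and 41.7 CPM in g2n5 and g2n7. NR0B1, an EWS::FLI1 target on Xp, was at 53.4 and 75.1 CPM in the controls and at 122.3, 134.3 and 261.3 CPM in KO libraries. It was not called (log2 fold change 1.43, SE 0.37, adjusted p = 0.082). STAG2 itself lies on the long arm of chromosome X, outside the block.

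**Figure D4:**
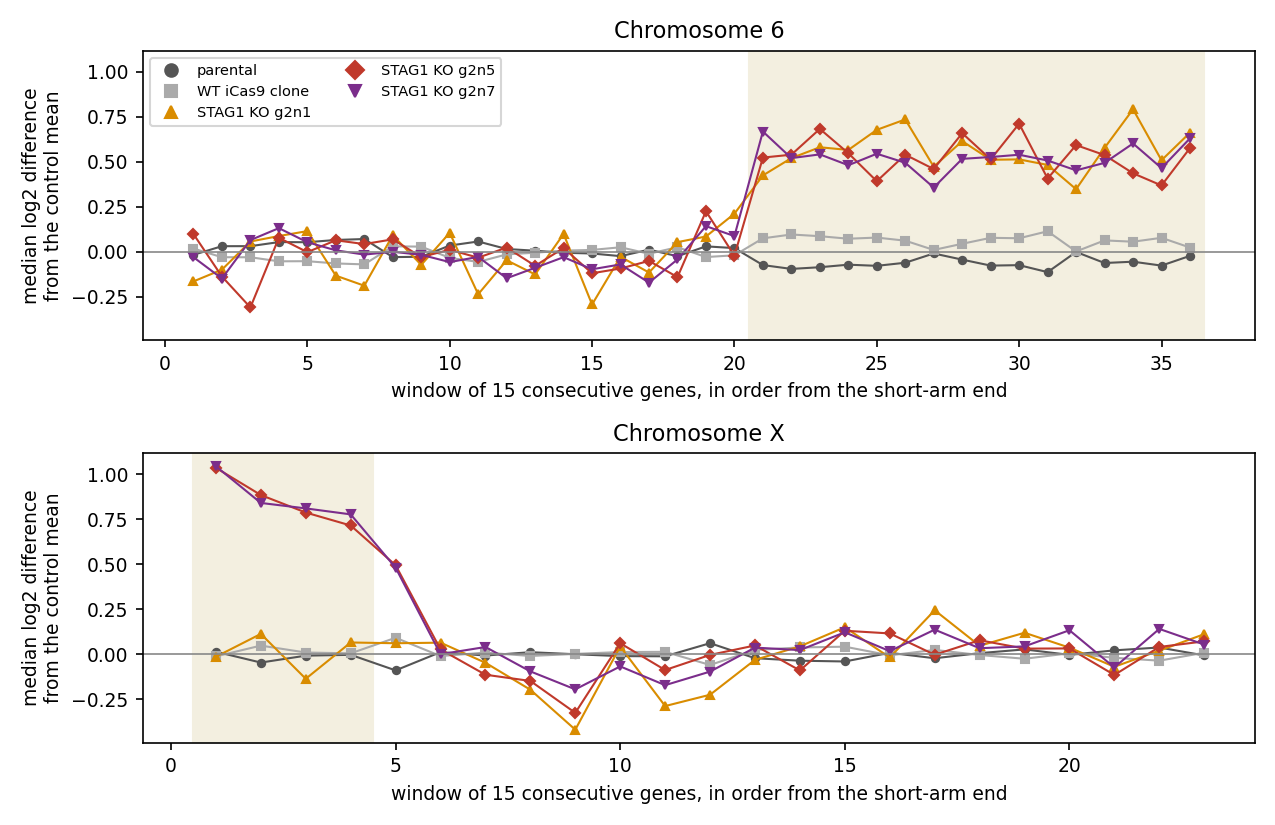
Median log2 difference from the mean of both controls in windows of 15 consecutive genes along chromosomes 6 and X, for the 5 libraries, with the 6q and Xp segments shaded. All 3 STAG1 KO clones were raised along 6q (medians 0.52 to 0.55), and g2n5 and g2n7 but not g2n1 were raised along Xp (0.88 and 0.81 against 0.01).

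The same segments were compared in all 22 A673 clone libraries, each against the parental library of its own experiment. On 6q (249 genes) the STAG1 KO clones were 0.56 to 0.60 above the parental library and the WT clone of experiment 3 was 0.13 above it, while WT libraries of experiments 1 and 2 were 0.28 to 0.43 above theirs. STAG2 KO libraries were at -0.02 and -0.01 in experiment 1 and at 0.21 to 0.45 in experiment 2, and of the EZH2 and SUZ12 KO libraries 2 of 6 exceeded 0.5. On Xp, 1 EZH2 KO library (1.07) and 1 STAG2 KO library (0.82) were about as high as g2n5 and g2n7, and the others were at -0.10 to 0.35. Levels in either block thus varied between A673 libraries of other genotypes too, and in STAG1 KO the segment and the genotype cannot be told apart on 6q, where every KO clone was raised.

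**Figure D5:**
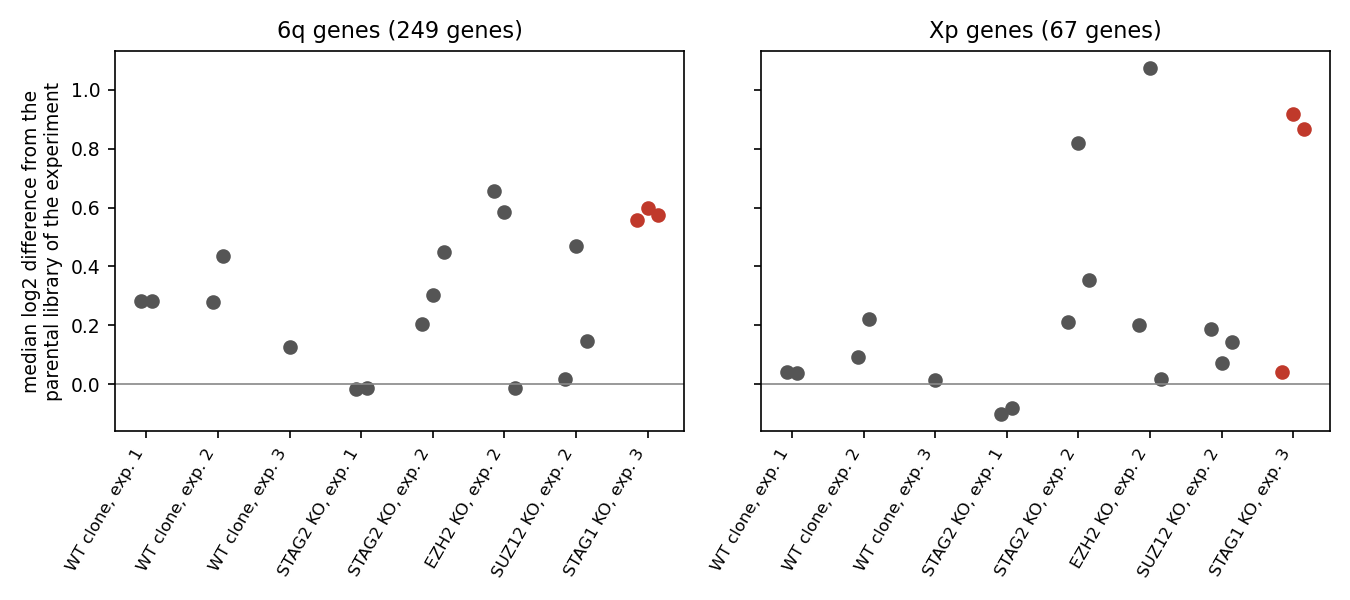
Median log2 difference of 6q genes (left) and Xp genes (right) from the parental library of the same experiment, 1 point per A673 library other than those parental libraries, with STAG1 KO in red. The 3 STAG1 KO clones stood at 0.56 to 0.60 on 6q, near 2 EZH2 KO libraries, and at 0.04, 0.87 and 0.92 on Xp.

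A comparison with STAG2 KO asked whether loss of one STAG protein changed the same genes as loss of the other. In a fit over 16 libraries with the experiment as a term, the STAG1 KO effect differed from the STAG2 KO effect in 904 of 15041 genes (6.01%). The number was 174 without the parental library of experiment 3, 272 without its WT library and 602 without g2n5. Both effects have the parental and WT cells as controls, from different experiments. Of the 24 genes with the largest changes in STAG1 KO, 10 differed between the genotypes. These 24 were picked on STAG1 KO libraries that also enter this test, which makes a difference more likely. NETO1 fell in STAG1 KO and had a log2 fold change of 2.28 in STAG2 KO (adjusted p = 4.55e-05), and the difference was -5.17 (SE 0.47, adjusted p = 3.82e-05). COL1A1 and SH3TC1 rose in STAG1 KO and fell in STAG2 KO (log2 fold change -1.56 and -1.66, adjusted p = 0.0288 and 0.0187). The difference was 4.86 (SE 0.88) for COL1A1 and 4.89 (SE 0.82) for SH3TC1. MAP7D2, MYLK and MGAT5 rose in STAG2 KO too (log2 fold change 4.03, 3.11 and 2.64), and FAM110C and GRIN2C fell (-4.14 and -7.16); for these 5 the difference between the genotypes did not pass the test, with adjusted p of 0.109 to 0.995. Among genes of the lists, and named here after their values were seen, TIMP4 and COL6A3 rose in STAG1 KO and fell in STAG2 KO by 2.51 and 3.36 on the log2 scale, and ABCC1, IGF1R and SEMA4D fell in STAG1 KO and had log2 fold changes of 0.86, 0.53 and 0.68 in STAG2 KO, each difference with an adjusted p of 0.000924 or less.

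Genes that the study named for STAG2 were not called over all 3 STAG1 KO clones, and RNF141 was called higher without g2n1. ADRA1D, an adrenergic receptor, was at 181.6 and 187.1 CPM in the controls and at 203.6, 226.3 and 218 CPM in KO libraries (log2 fold change 0.23, SE 0.09, adjusted p = 0.167). NR2F1, an orphan nuclear receptor, was at 0.525 to 2.13 CPM in all 5 libraries (0.44, SE 0.62, adjusted p = 0.705), and RNF141 had a log2 fold change of 0.29 (SE 0.28, adjusted p = 0.555), and of 0.55 without g2n1 (adjusted p = 0.0299). In STAG2 KO the values were -2.46, 3.43 and -0.84, and the difference between the genotypes passed the test for ADRA1D (2.71, adjusted p = 0.0217) but not for NR2F1 and RNF141 (adjusted p = 0.0841 and 0.11). Of 169 tested genes of the study's signature that were lower without STAG2, 8 were higher and 4 lower in STAG1 KO (median 0.02). Of 52 that were higher without STAG2, 1 was higher and 3 lower (median -0.14). These counts stand beside 2.77% higher and 2.5% lower over all genes tested. Of the 8, 4 lie on 6q or Xp, among them TRAF3IP2, ARHGAP18 and NT5DC1. The study chose this signature partly on A673 libraries, so its direction there is not independent evidence.

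The study's lists of EWS::FLI1 targets were also counted. The study reports that STAG1 loss left these targets unaffected, and genes in CTCF and cohesin contacts largely unchanged. It compared the fold changes of whole classes of genes, while called genes are counted here, which is a different measure. Of 551 tested genes with EWS::FLI1 at the promoter, 38 (6.9%) were higher and 14 (2.54%) lower (median 0.08). Of 678 in contact with distal short GGAA repeats 43 (6.34%) were higher and 18 (2.65%) lower (median 0.10). Of 150 in contact with distal long repeats 10 (6.67%) were higher and 3 (2%) lower (median 0.06). These shares stand beside 2.77% higher and 2.5% lower over all genes. On 6q or Xp lay 8 of the 38 and 5 of the 43. With the wider spread 3 of 563 promoter genes were higher and 2 lower. For short repeats 8 of 695 were then higher and 3 lower, and for long repeats 1 of 153 higher and 0 lower. COTL1, an actin-binding protein of the promoter list, rose from 14.1 and 11.5 CPM to 58.3, 88.3 and 37.5 CPM (log2 fold change 2.26, SE 0.38, adjusted p = 0.0347, and 0.00549 with the wider spread). Of STAG2-dependent genes in CTCF or cohesin contacts, 26 of 787 (3.3%) were higher and 22 (2.8%) lower where the contacts were common to WT and KO cells. Where they were lost 8 of 129 (6.2%) were higher and 6 (4.65%) lower, and where they were gained 3 of 68 (4.41%) were higher and 0 lower. PPM1L, a protein phosphatase of the list of lost contacts, fell from 22.7 and 11.5 CPM to 3.25, 2.19 and 1.84 CPM (log2 fold change -2.82, SE 0.38, adjusted p = 0.0258, and 0.00252 with the wider spread), and NFATC2, a calcium-regulated factor of the list of gained contacts, rose by 2.51 (SE 0.42).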

How the data were processed

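Poly(A) RNA-seq libraries of 5 A673 samples were analysed, 1 parental, 1 WT clone and 3 STAG1 KO clones. The authors made non-directional libraries by oligo-dT priming, aligned single-end reads to hg38 with TopHat2 (version 2.0.0), and used SAMtools (0.1.16) and, as the short-read mapper, Bowtie (0.12.7), per the labels and the study's methods, and deposited raw counts per gene symbol. The counting program and annotation are not given in the sources used here. The authors list DESeq2 among their tools. Library totals were 15734628 to 19704414 counts, and 0 columns of per-sample values in the tables used were left out. The deposited knockdown table and the tables of other cell lines were not used here.

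The quasi-likelihood test of edgeR (version 4.0.16, under R 4.3.3) was run on these counts after filterByExpr and TMM scaling (a call being made, after Benjamini-Hochberg adjustment over all genes tested, at an adjusted p under 0.05). CPM values are scaled by TMM. SE is the absolute log2 fold change divided by the square root of F. STAG1 KO and STAG2 KO were contrasted over 16 libraries with the experiment as a covariate. Alternatives were DESeq2 1.42.0 (test and size factors), library size only, other filters, the spread of all 22 A673 clone libraries, each library left out and, chosen after seeing the data, no 6q or Xp genes. Whether the libraries are separate cultures is not stated, and p-values measure the spread between them. The procedure was tested on simulated data.

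Named were STAG1, STAG2 and the cohesin lists, the 12 highest and 12 lowest log2 fold changes among called genes that averaged 5 CPM or more and had every KO library on the same side of both controls, 4 and 4 by that rule without g2n1, up to 4 called members per list (3 for the study's lists) and genes the study names. Members and lists were chosen with earlier results of these data known. The 6q and Xp limits were set after the values were seen. Positions are those of GENCODE 44 on GRCh38, which placed 25506 of 28278 symbols. Called genes with at most 3 counts in every library of a group (9 in KO, 8 in controls) have fold changes that depend on the prior count. Results for some genes are not reported here.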

Additional observations from a re-analysis of the deposited data

Results flagged for a closer look

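Of the 24 genes with the largest changes in STAG1 KO, 10 stood out. In these the STAG1 KO effect differed from the STAG2 KO effect by the test of the difference itself. The 24 were picked for their STAG1 KO change in libraries that also enter this test, so the choice favours a difference. The STAG1 KO minus STAG2 KO difference in log2 fold change was 6.93 for PLVAP, 4.89 for SH3TC1, 4.86 for COL1A1, 4.76 for SSC5D and 4.46 for RASGRF1. It was -2.83 for B4GALNT4, -3.12 for DCLK1, -4.50 for BTBD17, -5.17 for NETO1 and -6.11 for ELOVL2. The adjusted p was 3.82e-05 for NETO1, 0.000194 for B4GALNT4 and 0.00332 to 0.0341 for the other 8. The 2 genotypes were measured in different experiments, each with its own controls. The groups of experiment 3 hold at most 3 libraries, so no group was searched for a single library that stands apart.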

How the results depend on the processing

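The 757 calls became 1914 with DESeq2's test and 140 with the spread of all 22 A673 clone libraries, and ranged from 0 to 1310 when 1 library was left out. The 1310 calls without g2n1 became 73 with the wider spread and ranged from 0 to 1795 when 1 more library was left out. The 904 genes that differed between STAG1 KO and STAG2 KO became 1554 with DESeq2's test and ranged from 174 to 656. Both counts of 0 arose without a control, when the lone control was assumed to vary like the KO clones. Other scalings and filters and the removal of 6q and Xp genes kept each count within 1.5 times, but the excess of higher calls (398 against 359) turned over with library size only (347 against 400) and without 6q and Xp genes (290 against 300). STAG1 remained uncalled under every alternative, with log2 fold changes of -1.39 to -0.42. Of 148 genes named by rule 118 were called, and of these 118 all lost significance without the parental library and all without the WT library, 63 without g2n5, 55 without g2n7 and 90 with the wider spread, and 2 without g2n1. Small fold changes of cohesin genes changed sign: with library size only SMC3 was -0.022, RAD21 -0.006, NIPBL -0.027, MAU2 -0.016, HDAC8 -0.014 and PTTG1 -0.030, and with genes averaging 5 CPM or more PTTG1 was 0. With 1 library left out SMC3 ranged from -0.036 to 0.072, RAD21 from -0.031 to 0.105, NIPBL from -0.041 to 0.075, HDAC8 from -0.092 to 0.163, SGO1 from -0.11 to 0.247 and PTTG1 from -0.048 to 0.074, with none of them called in the 5 libraries. The cause was not tested. No paired analysis was possible because the groups of experiment 3 share fewer than 2 replicate numbers and the columns carry none that match. Depth limits genes near 3 counts.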

Other observations

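Among 32 ABC transporter genes tested, 2 (6.25%) were higher and 2 (6.25%) lower, beside 2.77% and 2.5% of all genes tested. ABCC1, the multidrug resistance protein MRP1, was at 83.1 and 65.4 CPM in the controls and at 20.9, 16.8 and 21.3 CPM in g2n1, g2n5 and g2n7. Its log2 fold change was -1.92 (SE 0.16, adjusted p = 0.0182), and with the spread of all A673 clone libraries it had an adjusted p of 1.58e-05. ABCA2 fell by 0.94 on the log2 scale (SE 0.16). ABCC3 rose by 2.40 (SE 0.42). ABCA2 and ABCC3 were not called with the wider spread.

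Outside 6q, the only run of at least 3 neighbouring called genes lay near the end of the long arm of chromosome 2 (chr2:241687085-241817413), where ING5, D2HGDH, GAL3ST2 and NEU4 were all lower, with log2 fold changes of -0.81, -1.36, -2.24 and -1.89. D2HGDH, which oxidises D-2-hydroxyglutarate, was at 86.9 and 108.4 CPM in the controls and at 35.3, 38.5 and 40.6 CPM in KO libraries. NEU4, a sialidase, was at 28.2 and 33.8 CPM in the controls and at 4.35, 10.8 and 9.93 CPM in KO libraries. ING5 and D2HGDH were called with the wider spread too. The genes were named after their values were seen.

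Of 35 chemokine, interleukin and receptor genes tested, 3 (8.57%) were called higher and 2 (5.71%) lower, beside 2.77% and 2.5% of all genes tested. Of 4 immune cell markers edgeR called 0, with 2 at an unadjusted p under 0.05 and 2 called by DESeq2. The interleukin 2 receptor chain IL2RB was at 0.495 and 0.448 CPM in the controls and at 9.94, 6.61 and 7.3 CPM in KO libraries, and the chemokine receptor CXCR4 at 2.43 and 9.07 CPM against 0.39, 0.224 and 0.158 CPM, so that the first was called higher and the second lower. PTPRC and CD3E had at most 2 counts in every library.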
